A study of Mus musculus with 6 samples.

Results

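The heat shock protein and cochaperone genes described here comprise the cytosolic and mitochondrial chaperones of the HSP70, HSP110, HSP90, HSP60, HSP10 and small heat shock protein families, the J-domain (DNAJ) and BAG cochaperones, and the heat shock factors. They were chosen by gene name, which found 82 genes in the deposited table, and 4 of these that act in the endoplasmic reticulum (Hspa5, Dnajb9, Dnajb11 and Dnajc3) were left out. Other genes of that compartment stayed in, among them Hspa13, Dnajc10 and Dnajc16, and a list compiled by hand places 7 members there. The remaining 78 members, of 21959 genes in all, were set out in 3 libraries of cells given oxygen-glucose deprivation and reoxygenation (OGD/R) with phillyrin and 3 libraries of cells given OGD/R alone. Phillyrin is a lignan glucoside of Forsythia. All 6 libraries came from wild-type mouse cells labelled HL-1, an atrial cardiomyocyte line, under a single batch label. Per the labels' protocols, OGD/R was 4 h of hypoxia in medium free of glucose followed by 24 h back in normal oxygen and complete medium. The phillyrin cells received 50 ug/mL for 8 h beforehand and then for 16 h together with OGD/R. How those 16 h lie within the reoxygenation is not stated, the labels name no vehicle for the OGD/R cells, and cells without OGD/R were not analysed here. Whether the 3 libraries of a group were grown as separate cultures is not stated, so the p-values reflect only how far these libraries scatter, and that scatter may be technical.

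Heat shock proteins hold unfolded proteins in solution and help them fold. HSP70 binds exposed hydrophobic stretches in a cycle driven by ATP, in which J-domain proteins deliver the client and start hydrolysis, and HSP110 and BAG proteins speed the release of ADP. Some clients pass on to HSP90 in the cytosol or are folded inside the HSP60 and HSP10 chamber of mitochondria. Heat shock factor 1 is held inactive by chaperones and, when unfolded proteins draw these away, binds heat shock elements in the promoters of many of these genes. In heart muscle, ischemia and reperfusion is a classical inducer of this response.

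The libraries held between 14761317 and 22123648 counts, and 11658 genes passed the filter on low counts. Of 8 markers of atrial cardiomyocytes, all 8 lay under 0.5 CPM, the count scaled to a common library size, in every library, and 4, among them Myh6 and Sln, had no count. Their sums were 0.0585 to 0.278 CPM with phillyrin and 0.289 to 0.368 CPM in OGD/R cells. Among 4 markers of skeletal myoblasts, Myod1 averaged 97.2 CPM with phillyrin and 83.2 CPM in OGD/R cells, Myf5 averaged 52.5 CPM with phillyrin and 64.2 CPM in OGD/R cells, and Myog and Myh3 averaged under 0.5 CPM in either group. The 4 summed to 149 to 152 CPM with phillyrin and to 144 to 154 CPM in OGD/R cells. The absence of the atrial markers goes against the label of the line. The 4 fibroblast markers summed to 770 to 791 CPM with phillyrin and to 897 to 908 CPM in OGD/R cells. Mitochondrially encoded transcripts took 3.49%, 3.59% and 4.27% of counts with phillyrin, against 3.18%, 3.30% and 3.27% in OGD/R cells. The part that these shifts have in the differences below was not tested, and in bulk RNA fewer cells of a type and less RNA per cell cannot be told apart.

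Transcript levels were compared between genes in FPKM, which divides a count by gene length and library total. The 10 most abundant members were Hsp90ab1, the constitutive cytosolic HSP90, at a mean of 1086 FPKM over the 6 libraries, its inducible partner Hsp90aa1 at 439.9 FPKM, the mitochondrial HSP70 Hspa9 at 373.6 FPKM, the mitochondrial HSP60 Hspd1 at 350.8 FPKM, the constitutive cytosolic HSP70 Hspa8 at 248.8 FPKM, the small heat shock protein Hspb1 at 224.3 FPKM, Hspa4 at 93.9 FPKM, Dnaja2 at 83.6 FPKM, Hspe1 at 77.9 FPKM and Bag1 at 73.7 FPKM. Hsp90ab1 stood clear of the rest in every library. The order of the next members differed by group. With phillyrin, Hsp90aa1 at 418.0 ± 34.1 FPKM lay within its spread of Hspa9 at 407.6 ± 5.23 FPKM, whereas in OGD/R cells it stood at 461.7 ± 16.2 FPKM and Hspa9 at 339.5 ± 8.07 FPKM (mean ± SD, n = 3 for these and the following values). Hspd1 averaged 366.0 ± 5.62 FPKM with phillyrin, below Hspa9, and 335.6 ± 8.41 FPKM in OGD/R cells, within the spread of Hspa9. Hspa8 averaged 290.6 ± 4.55 FPKM with phillyrin and 207.0 ± 0.973 FPKM in OGD/R cells. Hspb1 averaged 236.1 ± 15.8 FPKM with phillyrin and 212.5 ± 2.36 FPKM in OGD/R cells. By FPKM, Hspa8 thus lay above Hspb1 with phillyrin and below it in OGD/R cells. Ranks between genes depend on the lengths used, here 4301 bases for Hspa8 and 1031 bases for Hspb1. The longest annotated transcripts have 3158 and 930 bases, and both genes share stretches with pseudogenes. The order of this pair in OGD/R cells is therefore uncertain. At the other end, 18 members averaged under 1 FPKM.

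The inducible HSP70 genes were among the scarce members. Hspa1a and Hspa1b are neighbouring, nearly identical genes whose transcripts rise steeply under acute heat stress. Hspa1a had 0, 1 and 5 counts in phillyrin libraries, against 3, 5 and 3 counts in OGD/R libraries, too few for the test, and Hspa1b averaged 2.51 FPKM over all libraries. Exact stretches of 150 bases, the read length, shared with each other or with Hspa1l made up 39.7% of Hspa1a and 40.5% of Hspa1b, so the division of reads between them is uncertain.

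Of the 78 members, 67 could be tested, and 23 of these (34.3%) differed between the groups with an edgeR quasi-likelihood adjusted p under 0.05, close to the 31.7% of all genes tested. With phillyrin 15 members were higher and 8 lower, where 16.0% of all genes were higher and 15.6% lower. The median log2 fold change, phillyrin minus OGD/R, was 0.04 over the members tested and -0.01 over all genes tested. The changes were small: the median size among called members was 0.19 on the log2 scale, 10 of the 23 reached 0.2, and 0 passed edgeR's glmTreat test against a fold of 1.5 (also 0 at an unadjusted p under 0.05). CPM values of the groups did not overlap in 31 of the 67 members (46.3%), where 43.1% of all genes tested had separate groups. Abundance moved with the share called, since 17 of 34 members at or above 10.7 FPKM were called (50.0%), as against 6 of 33 below it (18.2%), and over all genes tested the same levels gave 41.7% and 25.3%. The split of calls rested in part on scaling, because library size alone, without a composition factor, gave 10 members higher and 12 lower. Of the 23 calls, DESeq2 did not make 6 (Bag1, Bag3, Dnajc15, Hspa12b, Hspa13 and Hspa1l, adjusted p = 0.0501 to 0.0715), library size alone did not give 5 (Bag1, Dnajb6, Dnajc10, Hspa13 and Hspa1l, 0.0519 to 0.189), and limma-voom did not make 1 (Hspa1l, 0.0508). The number of lower members was 5 without phillyrin replicate 2 or OGD/R replicate 2, and 4 without OGD/R replicate 3.

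**Figure D1:**
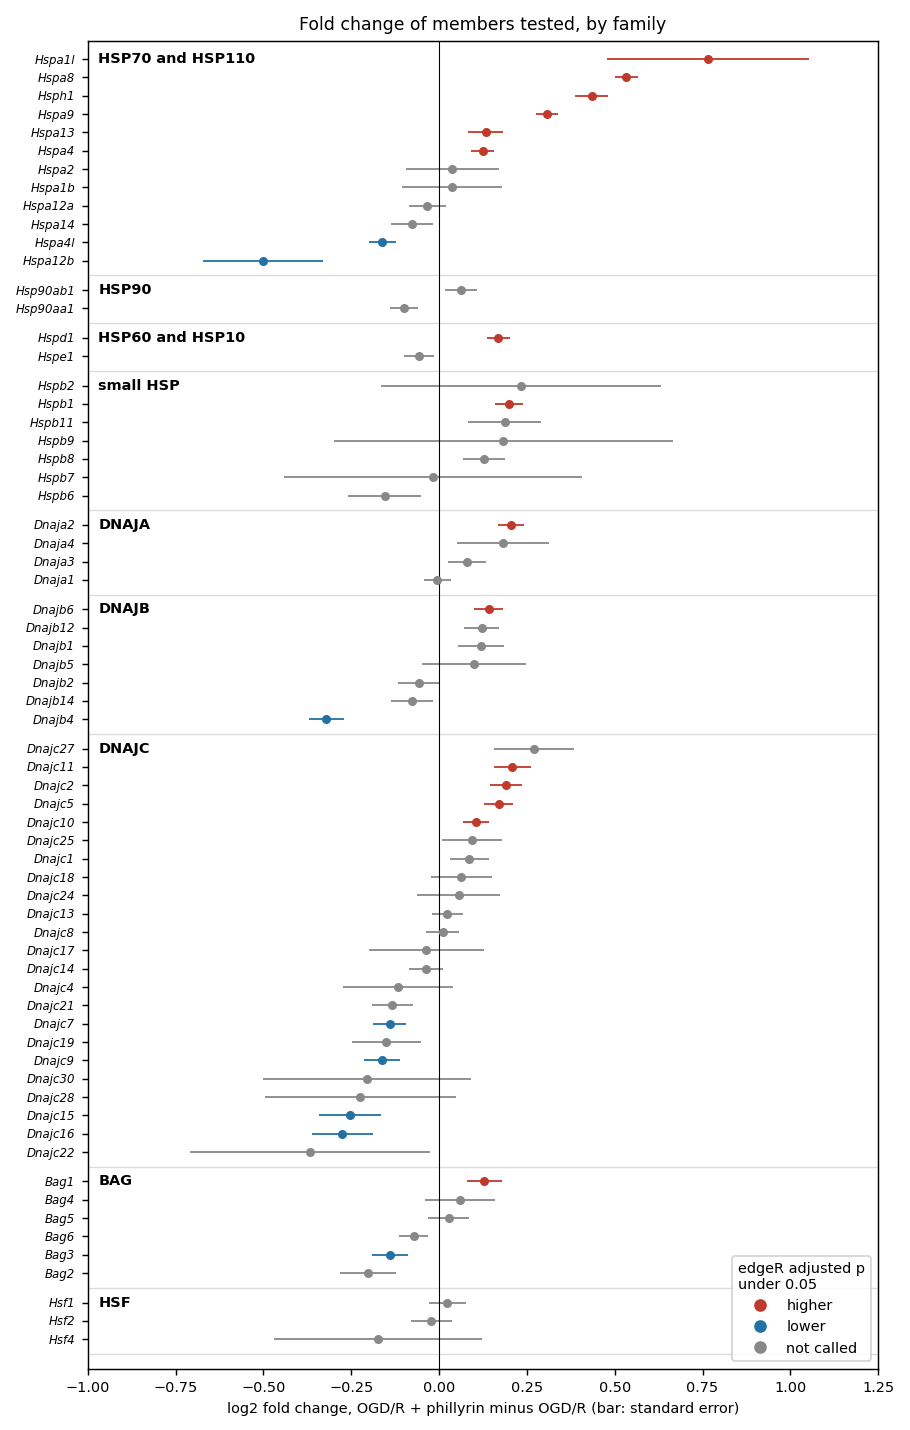
Log2 fold change of 66 of the 67 members tested, phillyrin minus OGD/R (x axis), grouped by family (y axis). Points are edgeR estimates from 3 libraries a group, bars are standard errors, and colour marks members with adjusted p under 0.05. Hspa8, Hsph1 and Hspa9 lie farthest right among the precisely measured members, and Dnajb4 lies left.

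Before the values of single families, promoter windows of 5 members are shown because these carry heat shock elements and the genes fall in each class of the comparison. The windows run from 250 bases before to 50 bases after an annotated start, in RefSeq's table for build GRCm38.p6, and are written 5′ to 3′ along the gene. Capitals mark each match to GAANNTTC or TTCNNGAA, a pair of inverted repeats as bound by heat shock factors, and both letter strings read the same on either strand. They are Hsph1 (chr5:149636266-149636565, minus strand) and Hspd1 (chr1:55087883-55088182, minus strand), both higher with phillyrin, Dnajb6 (chr5:29735648-29735947, plus strand), also higher, Dnajb4 (chr3:152193796-152194095, minus strand), lower, and Hspa1b (chr17:34959189-34959488, minus strand), not called.
Hsph1: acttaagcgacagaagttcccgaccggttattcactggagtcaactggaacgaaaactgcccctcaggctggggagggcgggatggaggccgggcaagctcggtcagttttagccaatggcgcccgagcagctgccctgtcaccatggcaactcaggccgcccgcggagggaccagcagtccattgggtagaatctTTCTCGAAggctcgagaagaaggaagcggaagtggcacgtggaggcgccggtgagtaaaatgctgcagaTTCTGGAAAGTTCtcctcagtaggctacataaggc
Hspd1: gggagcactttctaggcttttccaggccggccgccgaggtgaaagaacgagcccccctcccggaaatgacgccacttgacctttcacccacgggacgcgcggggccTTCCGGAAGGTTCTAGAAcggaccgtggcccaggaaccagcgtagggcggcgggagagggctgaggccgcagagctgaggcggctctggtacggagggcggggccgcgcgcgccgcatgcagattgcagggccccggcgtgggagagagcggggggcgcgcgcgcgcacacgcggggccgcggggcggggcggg
Dnajb6: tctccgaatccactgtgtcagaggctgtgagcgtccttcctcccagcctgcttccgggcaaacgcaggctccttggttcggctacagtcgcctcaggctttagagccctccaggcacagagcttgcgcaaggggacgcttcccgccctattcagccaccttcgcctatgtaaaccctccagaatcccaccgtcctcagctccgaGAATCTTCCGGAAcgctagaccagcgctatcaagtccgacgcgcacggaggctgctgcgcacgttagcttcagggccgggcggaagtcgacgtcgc
Dnajb4: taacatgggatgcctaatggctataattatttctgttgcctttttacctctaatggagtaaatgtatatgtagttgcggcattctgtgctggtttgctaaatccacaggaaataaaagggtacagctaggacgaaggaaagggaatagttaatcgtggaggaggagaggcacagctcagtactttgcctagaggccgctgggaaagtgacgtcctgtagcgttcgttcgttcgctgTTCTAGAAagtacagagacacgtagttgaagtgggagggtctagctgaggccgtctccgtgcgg
Hspa1b: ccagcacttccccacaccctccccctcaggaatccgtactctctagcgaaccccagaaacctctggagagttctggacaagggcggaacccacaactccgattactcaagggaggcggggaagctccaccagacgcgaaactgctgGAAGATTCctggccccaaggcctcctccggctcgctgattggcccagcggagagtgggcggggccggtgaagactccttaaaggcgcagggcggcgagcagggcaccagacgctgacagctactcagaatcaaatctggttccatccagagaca
In the windows of Hsph1, Hspd1 and Dnajb6 neighbouring matches overlap into runs of at least 3 units. The windows of Dnajb4 and Hspa1b shown here each hold 1 exact match to a pair. Only exact letters were marked, so units with a mismatch beside a match are missed and the length of an element can be understated. The table has another annotated start for Hspd1 (chr1:55088194-55088493) and for Dnajb4 (chr3:152210034-152210333), and neither of those windows holds a match. Other windows of Hsph1 (chr5:149636287-149636586) and Dnajb6 (chr5:29735729-29736028) overlap those shown and hold the same matches. In the Hsph1 window shown, the overlapping matches lie after the annotated start, beginning 15 and 20 bases from it. The Hspa1a window differed from that of Hspa1b at 4 of 300 bases. Hspd1 and Hspe1 are transcribed away from each other, and their windows share 285 bases, so a single stretch with the same run of units faces both genes.

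Over the promoter table, 60 members had an entry and 18 did not. A match of 2 units (GAANNTTC or TTCNNGAA) stood in 17 of 60 members (28.3%), against 17.0% of 27025 genes in the table. A match of 3 units (GAANNTTCNNGAA or TTCNNGAANNTTC, both strands) stood in 4 members (6.67%), namely Hsph1, Hspd1, Hspe1 and Dnajb6, against 0.662% of all genes. The 3-unit strings contain the 2-unit ones. By class, 2 units were found in 5 of 9 members that were higher with phillyrin, 2 of 8 that were lower, 7 of 34 that were not called and 3 of 9 that were not tested. Of the 15 higher members, 9 had an entry, and Hspa8, Hspa9, Hspa13, Dnajc2, Dnajc5 and Dnajc11 had none. These are exact letter matches and not measured binding, so elements with a mismatched unit are missed. The classes are described without a test.

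The HSP70 and HSP110 family held the 3 smallest p-values among the members. Hspa8, known as HSC70, serves general folding, clathrin uncoating and chaperone-mediated autophagy, and lies at chromosome 9, 40712280 to 40721383, plus strand, in the table's coordinates. It stood at 1255, 1286 and 1268 CPM with phillyrin and at 870.6, 880.2 and 881.5 CPM in OGD/R cells. The groups lay far apart and varied little, with a log2 fold change of 0.53 (standard error 0.03, edgeR adjusted p = 5.99e-16), or 1.45-fold. Stretches of 150 bases shared with annotated pseudogenes make up 21.9% of Hspa8, so part of its count is uncertain. Hspa9, called mortalin, is the matrix HSP70 that pulls proteins through the import channel. It had 1794, 1751 and 1808 CPM with phillyrin, against 1406, 1478 and 1441 CPM in OGD/R cells. Every phillyrin library was above every OGD/R library, with a log2 fold change of 0.31 (SE 0.03, adjusted p = 1.11e-09). Hsph1, or HSP105, is an inducible HSP110 that exchanges nucleotide on HSP70, located at chromosome 5, 149537752 to 149559841, minus strand. Its values were 140.2, 141.5 and 139.9 CPM with phillyrin and 99.7, 113.0 and 98.9 CPM without, again with no overlap. Its log2 fold change was 0.44 (SE 0.05, adjusted p = 2.17e-09), and no other annotated gene shared a 150-base stretch with it.

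The remaining HSP110 genes moved in opposite directions. Hspa4 had 536.2, 538.3 and 552.1 CPM with phillyrin, against 503.7, 488.2 and 500.3 CPM in OGD/R cells, a log2 fold change of 0.12 (SE 0.03, adjusted p = 0.00362). Its paralogue Hspa4l had 343.6, 307.4 and 328.8 CPM with phillyrin, against 358.9, 358.7 and 376.9 CPM, a log2 fold change of -0.16 (SE 0.04, adjusted p = 0.00117). In neither gene did the groups overlap. The FPKM ratio of Hspa4 to Hspa4l was 3.25, 3.64 and 3.49 with phillyrin and 2.92, 2.83 and 2.76 in OGD/R libraries (two-sided exact permutation p = 0.1, 0.133 after Benjamini-Hochberg adjustment over 4 ratios). With 3 libraries against 3, 0.1 is the smallest p this test can give, and the ratios were chosen after the values were seen.

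The other called HSP70 genes were weaker. Hspa13, a truncated HSP70 of microsomes, was higher at 104.1, 100.3 and 105.1 CPM with phillyrin, against 86.5, 98.1 and 97.1 CPM, with a log2 fold change of 0.13 (adjusted p = 0.0379). That call was lost without phillyrin replicate 1 (0.0638), phillyrin replicate 3 (0.064) or OGD/R replicate 1 (0.315). Hspa1l, a gene active mainly in testis beside Hspa1a and Hspa1b, was higher at only 1.58, 2.65 and 2.51 CPM with phillyrin, against 1.46, 1.11 and 1.42 CPM in OGD/R cells. Its log2 fold change of 0.77 had an SE of 0.29 and an adjusted p of 0.0379, which became 0.0584 to 0.189 without any of 5 libraries, phillyrin replicate 1 being the exception. Hspa12b, a divergent HSP70 relative known from endothelium, was lower at 3.51, 4.20 and 3.76 CPM with phillyrin, against 5.14, 5.26 and 5.95 CPM, with a log2 fold change of -0.50 (SE 0.17, adjusted p = 0.0227). It was not called without phillyrin replicate 1 (0.0802), phillyrin replicate 3 (0.052) or OGD/R replicate 3 (0.103), and the endothelial markers Pecam1, Cdh5, Kdr and Tek together stayed at or under 1.35 CPM in every library.

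Counted as a family, 12 of 13 HSP70 and HSP110 genes were tested, 6 were higher with phillyrin and 2 lower. That was 66.7% called, against 31.7% of all genes tested and 41.7% of those at or above 10.7 FPKM. The higher count was 4 with DESeq2, with library size alone, or without phillyrin replicate 3 or OGD/R replicate 1. It was 5 with limma-voom or without any other single library. The lower count was 1 with DESeq2 or without phillyrin replicate 1, phillyrin replicate 3 or OGD/R replicate 3. Not called were Hspa1b, at 6.44, 8.27 and 6.54 CPM with phillyrin against 6.76, 6.90 and 7.26 CPM, and Hspa2, Hspa12a and Hspa14. The log2 fold change of Hspa1b was 0.04, with a 95% interval of -0.24 to 0.32. Summed over the family, FPKM reached 892.5, 886.7 and 882.3 with phillyrin and 722.5, 739.5 and 731.4 in OGD/R libraries. Hspa8 and Hspa9 together supplied 78.6% to 78.8% of that sum with phillyrin, against 74.4% to 75.1% without it. All members together took 1.37%, 1.35% and 1.39% of counts in phillyrin libraries and 1.30%, 1.32% and 1.31% in OGD/R libraries.

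**Figure D2:**
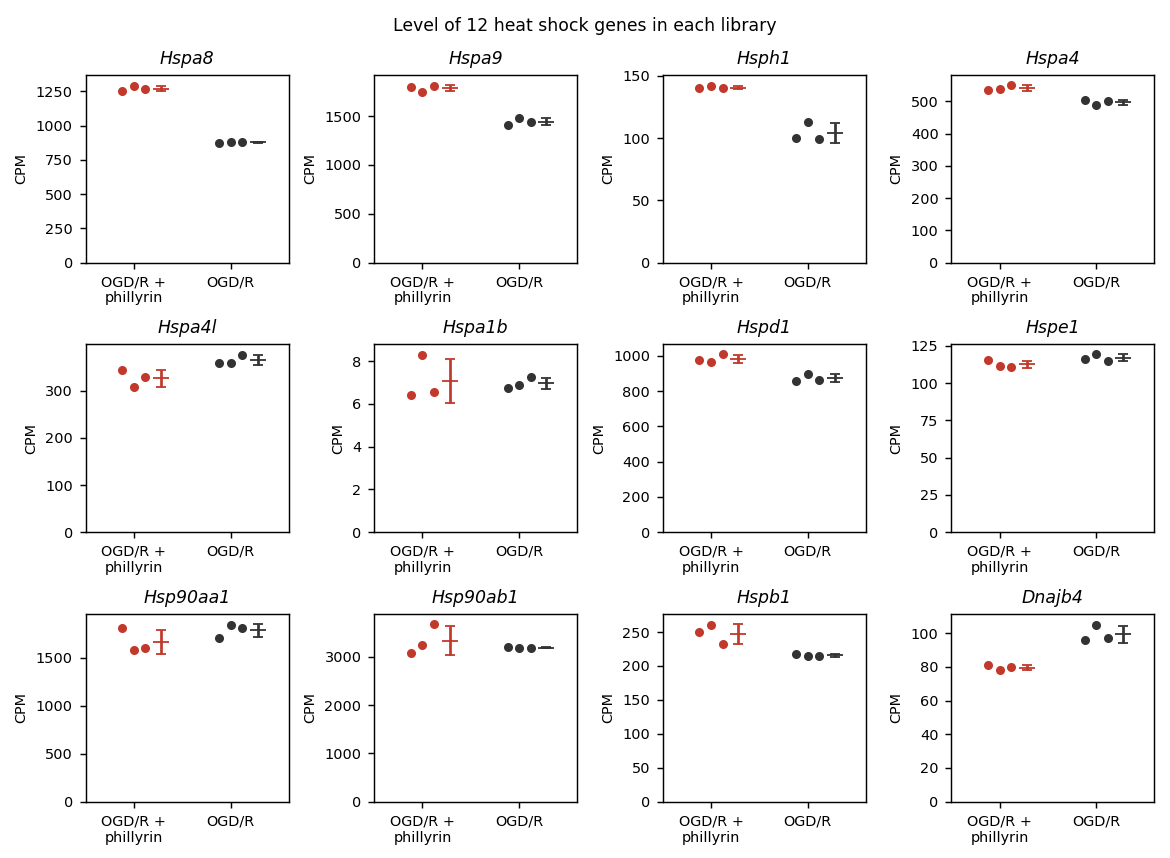
CPM of 12 members in each library (y axis from 0), with 3 libraries of OGD/R with phillyrin on the left and 3 of OGD/R on the right of each panel. Points are libraries, and the line with a bar beside them is the mean and SD. Hspa8, Hspa9, Hsph1, Hspa4, Hspd1 and Hspb1 are higher with phillyrin without overlap, Hspa4l and Dnajb4 are lower without overlap, and the groups of Hspa1b, Hspe1, Hsp90aa1 and Hsp90ab1 overlap.

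With all libraries and TMM scaling 0 of the 2 HSP90 genes were called by edgeR, and 0 by DESeq2. Hsp90aa1 had an unadjusted edgeR p under 0.05, and it passed as lower with limma-voom (adjusted p = 0.0252), in edgeR with library size alone (0.0275) and in edgeR with no filter on low counts (0.0169). Hsp90aa1 had 1816, 1581 and 1609 CPM with phillyrin, against 1714, 1840 and 1811 CPM in OGD/R cells. Phillyrin replicate 1 lay among the OGD/R values and the other two below them, and the log2 fold change was -0.10 (standard error 0.04, edgeR adjusted p = 0.0664). Hsp90aa1 passed as lower without phillyrin replicate 1 (log2 fold change -0.16, adjusted p = 0.000633) or OGD/R replicate 1 (adjusted p = 0.0311). Stretches of 150 bases shared with pseudogenes make up 36.2% of it. Hsp90ab1 stood at 3084, 3242 and 3675 CPM with phillyrin, against 3202, 3184 and 3182 CPM. Its phillyrin libraries spread to both sides of a tight OGD/R group, with a log2 fold change of 0.06 (95% interval -0.03 to 0.15, adjusted p = 0.314). Without phillyrin replicate 1 Hsp90ab1 passed as higher (adjusted p = 0.0105). The FPKM ratio of Hsp90aa1 to Hsp90ab1 was 0.449, 0.372 and 0.334 with phillyrin and 0.408, 0.441 and 0.434 without (two-sided exact permutation p = 0.4, also after adjustment over the 4 ratios).

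The mitochondrial chaperonin pair gave different results for its partners. Hspd1, the HSP60 barrel at chromosome 1, 55116994 to 55127402, minus strand, had 974.9, 963.2 and 1009 CPM with phillyrin, against 855.6, 899.1 and 866.5 CPM in OGD/R cells. The groups were separate, with a log2 fold change of 0.17 (standard error 0.03, edgeR adjusted p = 1.19e-04). Hspe1, the HSP10 lid at 55127291 to 55130466 on the plus strand, had 115.5, 111.3 and 110.9 CPM with phillyrin, against 116.4, 119.7 and 115.1 CPM. Its groups overlapped slightly, with a log2 fold change of -0.06 (95% interval -0.14 to 0.03, adjusted p = 0.342). The 5′ ends of the genes overlap on opposite strands. Reads there cannot be told apart unless the counting used strand, which is not stated. A pseudogene shares 18.6% of Hspd1 in 150-base stretches. The FPKM ratio of Hspd1 to Hspe1 was 4.71, 4.83 and 5.08 in phillyrin libraries and 4.10, 4.19 and 4.20 in OGD/R libraries (two-sided exact permutation p = 0.1, 0.133 after adjustment). Both genes have the same run of at least 3 heat shock element units in their shared window, printed above for Hspd1.

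Among 7 small heat shock genes tested, Hspb1 alone was called (14.3%, against 31.7% of all genes tested). Hspb1 encodes the small chaperone HSP25, which forms large oligomers and binds actin filaments. It had 249.6, 260.3 and 231.7 CPM with phillyrin, against 218.0, 215.1 and 214.4 CPM in OGD/R cells. All phillyrin values were higher, with a log2 fold change of 0.20 (standard error 0.04, edgeR adjusted p = 1.65e-04), and a pseudogene shares 36.6% of the gene in 150-base stretches. Hspb8, the partner of Bag3 in selective autophagy, had 49.9, 50.3 and 49.2 CPM with phillyrin, against 45.4, 46.1 and 45.2 CPM. Its groups did not overlap, yet the log2 fold change of 0.13 (95% interval 0.01 to 0.25) had an adjusted p of 0.0969. Hspb2, Hspb7 and Hspb9 stayed at or under 1.252 CPM, and Hspb6 and Hspb11 were not called.

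The J-domain proteins of types A and B, which include the main general partners of HSP70 in the cytosol, gave 3 calls. Dnaja2 had 269.7, 262.7 and 267.8 CPM with phillyrin, against 228.3, 240.1 and 225.7 CPM in OGD/R cells. It was higher in every phillyrin library, with a log2 fold change of 0.21 (standard error 0.04, edgeR adjusted p = 3.92e-05). Its paralogue Dnaja1 had 317.4, 289.7 and 295.4 CPM with phillyrin, against 299.9, 309.8 and 295.7 CPM. Here the groups overlapped, with a log2 fold change of -0.01 (95% interval -0.08 to 0.07, adjusted p = 0.932). The FPKM ratio of Dnaja2 to Dnaja1 was 2.46, 2.63 and 2.63 with phillyrin and 2.21, 2.25 and 2.21 without (two-sided exact permutation p = 0.1, 0.133 after adjustment).

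Dnajb4 and Dnajb1, close relatives that both are heat-inducible, had estimates of opposite sign, a difference that was not itself tested. Dnajb4 had 81.0, 78.0 and 79.6 CPM with phillyrin, against 95.7, 104.9 and 97.2 CPM in OGD/R cells. The groups were well apart, and the log2 fold change was -0.32 (standard error 0.05, edgeR adjusted p = 3.47e-06), the smallest p among members that were lower. Dnajb1, HSP40 proper, had 39.7, 39.4 and 40.7 CPM with phillyrin, against 37.8, 37.2 and 35.2 CPM. Its groups did not overlap either, but the log2 fold change of 0.12 (95% interval -0.01 to 0.25) had an adjusted p of 0.162. Dnajb6, which keeps polyglutamine proteins from aggregating, was higher at 181.5, 195.9 and 199.6 CPM with phillyrin, against 166.5, 180.3 and 176.2 CPM. Its log2 fold change of 0.14 (adjusted p = 0.00846) was not called without OGD/R replicate 1 (0.09) or with library size alone (0.0634), and pseudogenes share 26.1% of it in 150-base stretches. By type, 4 of 4 DNAJA genes were tested, with 1 higher, and 7 of 11 DNAJB genes, with 1 higher and 1 lower. The shares called were 25.0% of DNAJA and 28.6% of DNAJB genes, against 31.7% of all genes tested. The DNAJB count of higher genes was 0 when OGD/R replicate 1 was left out, and 2 when phillyrin replicate 1 was, since Dnajb12 then passed (adjusted p = 0.0218).

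The type C J-domain proteins act at particular sites, and of 27 genes 23 were tested, 4 higher and 4 lower (34.8% called, against 31.7% of all genes tested). Those that were higher work in 4 different places. Dnajc2, the ribosome-bound partner of Hspa14, had 118.4, 119.5 and 129.5 CPM with phillyrin, against 107.2, 104.9 and 109.4 CPM in OGD/R cells, a log2 fold change of 0.19 (standard error 0.05, edgeR adjusted p = 0.00126). Dnajc5, the cysteine string protein of exocytic vesicles, had 168.7, 166.7 and 157.0 CPM with phillyrin, against 149.7, 142.4 and 146.0 CPM, a log2 fold change of 0.17 (SE 0.04, adjusted p = 0.00141). Dnajc11, of the mitochondrial membranes, had 89.4, 90.4 and 89.3 CPM with phillyrin, against 74.4, 83.6 and 74.7 CPM, a log2 fold change of 0.21 (SE 0.05, adjusted p = 0.00194). These 3 stayed called with any 1 of the 6 libraries left out. Dnajc10, a disulfide reductase of the endoplasmic reticulum, was at 261.3, 249.9 and 258.7 CPM with phillyrin, against 236.9, 238.8 and 240.1 CPM, a log2 fold change of 0.10 (adjusted p = 0.0251). It was lost without OGD/R replicate 1 (0.0916), replicate 2 (0.0857) or replicate 3 (0.0734), and with library size alone (0.186).

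Each of the 4 lower type C genes depended on single libraries. Dnajc16, of the endoplasmic reticulum membrane, had 19.7, 17.9 and 16.8 CPM with phillyrin, against 21.4, 22.5 and 22.0 CPM in OGD/R cells (log2 fold change -0.28, edgeR adjusted p = 0.0133). It was lost without phillyrin replicate 3 (0.0602) or OGD/R replicate 2 (0.0613). Dnajc15, an inner membrane protein of mitochondria, had 19.1, 19.0 and 22.8 CPM with phillyrin, against 24.6, 22.1 and 25.6 CPM (log2 fold change -0.25, adjusted p = 0.0242). Dnajc15 was the called member whose groups overlapped, and its call was lost without phillyrin replicate 1 (0.1) or 2 (0.135) or OGD/R replicate 1 (0.0754) or 3 (0.127). Dnajc9, a chaperone of histones, had 70.3, 71.1 and 74.1 CPM with phillyrin, against 83.7, 78.4 and 79.0 CPM (log2 fold change -0.16, adjusted p = 0.0152). It was lost without phillyrin replicate 1 (0.0602) or 2 (0.0542) or OGD/R replicate 1 (0.0999). Dnajc7, which binds HSP70 and HSP90 through TPR repeats, had 94.9, 91.0 and 93.4 CPM with phillyrin, against 100.4, 101.8 and 105.2 CPM (log2 fold change -0.14, adjusted p = 0.0197). Its call was lost without phillyrin replicate 2 (0.0889) or OGD/R replicate 2 (0.0542) or 3 (0.11), and the gene overlaps Cnp and Nkiras2 on the other strand. The count of lower type C genes was 1 or 2 without any library other than phillyrin replicate 3.

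The BAG proteins, which bind the HSP70 ATPase domain, gave 1 higher and 1 lower gene of 6 (33.3% called, against 31.7% of all genes tested). Bag1, a nucleotide exchange factor that links HSP70 to the proteasome, had 103.2, 108.8 and 99.7 CPM with phillyrin, against 95.4, 90.8 and 99.5 CPM in OGD/R cells (log2 fold change 0.13, edgeR adjusted p = 0.0402). It was lost without phillyrin replicate 2 (0.181) or OGD/R replicate 1 (0.0901) or 2 (0.233). Bag3, a heat-inducible scaffold of selective autophagy in muscle, had 72.9, 77.1 and 72.0 CPM with phillyrin, against 83.5, 81.3 and 80.3 CPM (log2 fold change -0.14, adjusted p = 0.0335). Bag3 was lower in each phillyrin library, but the call was lost without phillyrin replicate 1 (0.103) or 3 (0.0961) or OGD/R replicate 1 (0.121), 2 (0.0814) or 3 (0.0613). Bag2, which inhibits client ubiquitination by CHIP, was not called (adjusted p = 0.0518) and passed as lower without phillyrin replicate 1 (0.0249) or OGD/R replicate 1 (0.0235).

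Of 3 heat shock factors tested, 0 were called by edgeR, DESeq2 or limma-voom, and 0 had an unadjusted edgeR p under 0.05. Hsf1, the master regulator of the heat shock response, had 80.9, 75.0 and 74.0 CPM with phillyrin, against 78.5, 76.5 and 71.2 CPM in OGD/R cells, a log2 fold change of 0.02 (95% interval -0.08 to 0.13, edgeR adjusted p = 0.775). Hsf2, which forms mixed trimers with it, had 54.9, 54.7 and 56.8 CPM with phillyrin, against 58.8, 54.6 and 55.4 CPM, a log2 fold change of -0.02 (95% interval -0.14 to 0.09, adjusted p = 0.805). In both genes the groups overlapped. Transcript levels do not report the activity of these factors, which is set at the protein.

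**Figure D3:**
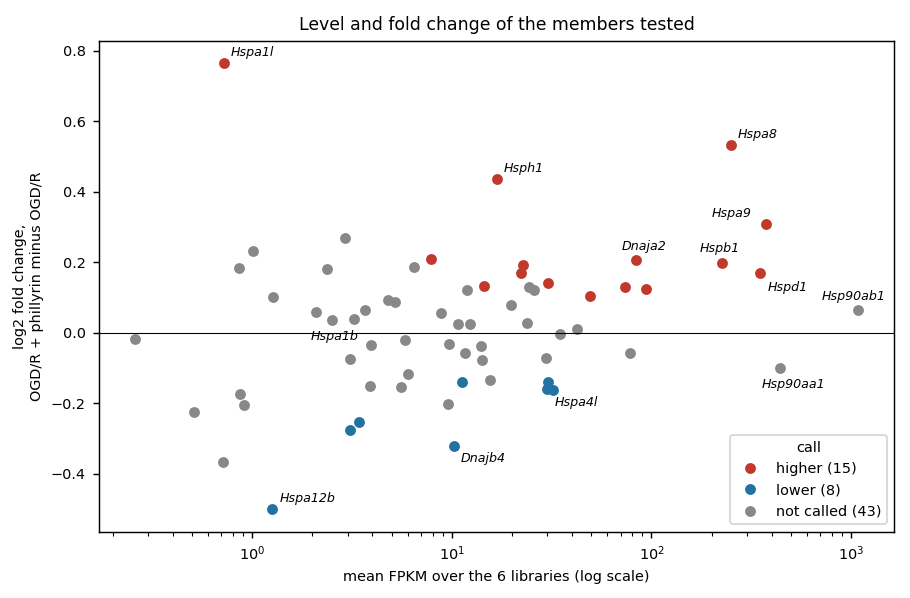
Mean FPKM over the 6 libraries (x axis, log scale) against log2 fold change, phillyrin minus OGD/R (y axis), for 66 of the 67 members tested. Colour marks the call, and most called members lie at or above 10.7 FPKM, where 17 of 34 were called.

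Read by site and by induction, on short lists compiled by hand, the members were mixed. Of 12 tested members listed as rising after heat, 4 were higher with phillyrin (Hspa8, Hsph1, Hspb1 and Hspd1), 3 were lower (Dnajb4, Bag3 and Hspa4l) and 5 were not called. That made 7 of 12 called (58.3%), against 31.7% of all genes tested and 41.7% of those at or above 10.7 FPKM. The list includes Hspa8, named above as the constitutive cytosolic HSP70. It was drawn up with earlier results of these data known, so its share is description only and was not tested. The median log2 fold change of the 12 members was 0.02, against -0.01 over all genes tested. Of 10 members listed as mitochondrial, 3 were higher (Hspa9, Hspd1 and Dnajc11) and 1 was lower (Dnajc15), with a median of -0.09. The deposited annotation gives mitochondrial terms to 23 members and terms of the endoplasmic reticulum to 11. Of 7 listed for the endoplasmic reticulum, 2 were higher (Hspa13 and Dnajc10) and 1 was lower (Dnajc16), with a median of 0.09. The direction and call of 12 members held under every setting tried apart from the test against a fold of 1.5. They were Hspa8, Hspa9, Hsph1, Hspa4, Hspd1, Hspb1, Dnaja2, Dnajc2, Dnajc5 and Dnajc11, all higher, and Hspa4l and Dnajb4, both lower.

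The 11 members that were not tested were scarce. Dnajb8, Dnajc5b, Dnajc5g and Hspb3 had no count in any library, which allows up to 0.0269 CPM over the 111513800 counts of all libraries. Dnajb13, Dnajc6 and Hsf3 had 1 count each and Dnajb3 had 4. Hspa1a had 17 counts in all, Dnajb7 had 21 and Dnajc12 had 30.

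Of 76 further genes of the pathway in 7 lists, 74 were tested, 18 were higher with phillyrin and 4 lower (29.7% called, against 31.7% of all genes). With library size alone the split was 10 higher and 9 lower, and of the genes named below Ubqln1, Ubqln4, Cct2, Cct5, Pfdn5 and Yme1l1 were not called (edgeR adjusted p = 0.0818 to 0.257). Among 20 HSP90 cochaperones 5 were higher and 2 lower, and among 11 regulators of HSP70 3 were higher. Tomm70a, the outer mitochondrial membrane receptor that takes precursors from HSP70 and HSP90, was higher at 390.8, 374.5 and 380.1 CPM with phillyrin, against 321.0, 330.3 and 329.5 CPM (log2 fold change 0.22, edgeR adjusted p = 3.18e-06). Unc45a, a myosin chaperone, was lower at 25.4, 25.3 and 28.5 CPM with phillyrin, against 34.8, 34.9 and 34.7 CPM (log2 fold change -0.40, adjusted p = 3.86e-05). Ahsa2, a relative of the HSP90 ATPase activator Ahsa1, was lower at 45.2, 45.0 and 38.8 CPM with phillyrin, against 54.0, 57.2 and 52.6 CPM (log2 fold change -0.34, adjusted p = 7.42e-05). St13, known as HIP, which slows nucleotide release from HSP70, was higher at 417.1, 403.3 and 460.0 CPM with phillyrin, against 353.5, 378.9 and 358.8 CPM (log2 fold change 0.23, adjusted p = 2.26e-05). Tomm70a, Unc45a, Ahsa2 and St13 had separate groups. So had 45.0% of the HSP90 cochaperones, 36.4% of the HSP70 regulators and 43.1% of all genes tested. On the other strand Tomm70a overlaps Nit2, Unc45a overlaps Hddc3 and Ahsa2 overlaps Usp34, so part of their counts is uncertain. The ubiquilins Ubqln1 (0.11, adjusted p = 0.0335) and Ubqln4 (0.12, adjusted p = 0.0439), shuttles to the proteasome, were each lost without OGD/R replicate 1 (0.088 and 0.0515), 2 (0.14 and 0.167) or 3 (0.0718 and 0.134) or phillyrin replicate 2 (0.0644 and 0.136), and Ubqln1 also without phillyrin replicate 3 (0.0891).

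The chaperonin TRiC, which folds actin and tubulin, had 3 of 8 subunits higher. Cct4 was higher at 533.3, 530.0 and 568.7 CPM with phillyrin, against 454.4, 466.0 and 458.1 CPM in OGD/R cells (log2 fold change 0.24, edgeR adjusted p = 6.94e-07). Cct5 (0.11, adjusted p = 0.00794) and Cct2 (0.09, adjusted p = 0.03) moved less, and both were lost without OGD/R replicate 1 (0.0501 and 0.0921) or 3 (0.0534 and 0.127), Cct2 also without OGD/R replicate 2 (0.0965). Prefoldin, which hands clients to TRiC, had 2 of 6 subunits higher. Vbp1 was at 157.5, 162.4 and 171.6 CPM with phillyrin, against 117.7, 123.5 and 123.3 CPM (log2 fold change 0.43, adjusted p = 3e-10), the largest change among these lists' genes that were higher. Pfdn5 (0.15, adjusted p = 0.021) was lost without phillyrin replicate 2 (0.0617), phillyrin replicate 3 (0.0677) or OGD/R replicate 1 (0.272). The shares called, 37.5% for TRiC and 33.3% for prefoldin, were near the 31.7% of all genes tested. Not called were 5 of 8 TRiC and 4 of 6 prefoldin subunits.

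Of 16 mitochondrial folding and quality control genes, 3 were higher and 1 lower (25.0% called, against 31.7% of all genes tested). The matrix protease Lonp1 was at 248.8, 253.0 and 249.6 CPM with phillyrin, against 215.3, 207.1 and 202.0 CPM in OGD/R cells (log2 fold change 0.27, edgeR adjusted p = 5.13e-07). Clpb, a disaggregase between the mitochondrial membranes, was at 54.6, 61.5 and 58.2 CPM with phillyrin, against 46.7, 51.2 and 48.0 CPM (log2 fold change 0.26, adjusted p = 0.00113). Both had separate groups, as had 9 of the 16 genes in all (56.2%), higher, lower or not called, and 43.1% of all genes tested. The inner membrane protease Yme1l1 was higher (0.14, adjusted p = 0.00839) but lost without phillyrin replicate 1 (0.059) or OGD/R replicate 2 (0.0661), and the lower gene was the protease subunit Spg7 (-0.21, adjusted p = 0.00947), lost without phillyrin replicate 3 (0.055). Of the 4 genes of the endoplasmic reticulum left out by name, Hspa5, its HSP70 (BiP), was higher at 1042, 1087 and 1077 CPM with phillyrin, against 893.4, 913.9 and 910.4 CPM (log2 fold change 0.24, adjusted p = 2.8e-07). Dnajb9 was lower (-0.20, adjusted p = 0.045) and lost its call when any library other than phillyrin replicate 3 was left out (adjusted p = 0.0595 to 0.178), and with DESeq2 (0.093), RLE factors (0.0532) or no filter on low counts (0.0686). Of 9 other targets and regulators of HSF1 tested, Ier5, which promotes HSF1 activity, was higher at 63.8, 67.6 and 65.2 CPM with phillyrin, against 53.9, 56.7 and 57.3 CPM (log2 fold change 0.23, adjusted p = 0.00169), and 8 were not called.

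**Figure D4:**
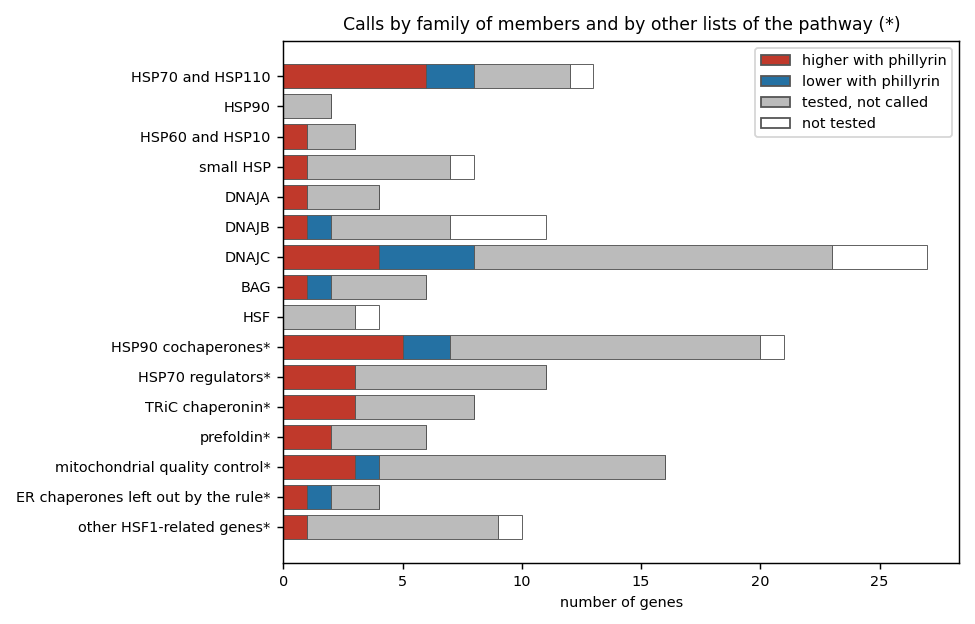
Number of genes (x axis) that were higher with phillyrin, lower with phillyrin, tested but not called, or not tested, for each family of members and for 7 other lists of the pathway, marked with an asterisk (y axis). HSP70 and HSP110 genes hold 8 calls among 12 tested, and HSP90 and heat shock factor genes hold none. Of all genes tested, 31.7% were called.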

How the data were processed

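Poly(A) RNA of 6 libraries was read as pairs of 150 bases, 3 of OGD/R cells given phillyrin and 3 of OGD/R cells, per the labels. The submitters' processing notes name build GRCm39 and DESeq2 1.34.0, featureCounts 2.0.3, HISAT2 2.2.1 and Trimmomatic 0.39. Not given in the sources used here are the role and settings of each, including strand and multiple alignments. Per the file headers, the deposited table holds read counts and FPKM for every gene in each library. The authors' FPKM equalled the count over length and library total to a relative difference of 2.43e-07, so FPKM ranked genes and counts were tested. Columns were assigned by sample title, because 1 column name is repeated in the descriptions of the 3 phillyrin libraries.

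Genes were filtered with filterByExpr by group, scaled by TMM and compared by the robust quasi-likelihood test of edgeR 4.0.16 in R 4.3.3 (limma 3.58.1 for limma-voom), two-sided, with Benjamini-Hochberg adjustment over 11658 genes and a threshold of 0.05. With a single batch label, the fit had no covariate. CPM used TMM-scaled library sizes, and 95% intervals are the estimate plus or minus 1.96 SE. On counts simulated for this comparison over 11582 genes, the test recovered 41.8% of genes changed 1.25-fold, 84.8% of those changed 1.5-fold and 93.9% of those changed 2-fold, with 7 false calls among 153. Far fewer genes were changed in the simulation than the 3694 called in the data. Adjusted p-values depend on that number, so these rates do not carry over to the data. Library size limits scarce genes: a count of 0 allows up to 3 counts, and this limit covers counting error only, since PCR copies are not independent molecules. Of 21851 genes also in a GRCm38 annotation (GENCODE M21), 2.37% had the table's start, so the table's gene coordinates were taken as GRCm39. That annotation served for shared stretches of transcripts. Overlaps between genes came from the deposited table's own gene coordinates, and promoters came from RefSeq (GRCm38.p6). Genes with values in the text were every called member, 17 members named whatever their test, the 10 of highest FPKM and up to 3 genes with the smallest p in each other list, and others are given with their reason. A single tested member is neither named nor drawn here, though it stays in the counts. The members and lists were chosen with earlier results of these data known. Alternatives were RLE factors, library size alone, DESeq2 (version 1.42.0), limma-voom, other count filters, each library left out, a replicate block and a test against a fold of 1.5.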

Additional observations from a re-analysis of the deposited data

How the results depend on the processing

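No direction of a called member turned under any setting. Against a fold of 1.5 (glmTreat) 0 members were higher and 0 lower, and 0 other listed genes were higher and 0 lower (also 0 members and 0 other genes at an unadjusted p under 0.05). DESeq2 gave 5 lower members. With library size alone the median of the members was -0.006, and 10 other listed genes were higher and 9 lower. That setting moved the median of all genes by -0.043. Leaving out 1 library gave 4 to 7 lower members and a median of 0.015 to 0.05. The cause of these moves was not tested, beyond fewer samples or a fold minimum. The replicate block left 15 members higher and 8 lower, all 23 the same genes, while Ubqln4 (adjusted p = 0.0547) and Dnajb9 (0.0519) among the other genes were lost. Same-numbered libraries correlated at 0.0028 to 0.0056, each best with its own number but all under 0.1, so the numbers were not taken as pairs. Among members that overlap no gene on the other strand and share no 150-base stretch, a choice made after seeing the data, 10 were higher and 7 lower. Of the 44 members not called, 7 passed under at least 1 setting: Bag2, Bag6, Dnajb12, Dnajc21, Dnajc27, Hsp90aa1 and Hsp90ab1. Depth limits what can be said of the 18 members under 1 FPKM.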
